A study of Mus musculus with 12 samples.

Results

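The respiratory chain genes described here are the protein-coding genes of the count table whose symbols begin with Nduf, Uqcr, Atp5, mt-Nd, mt-Co, mt-Atp, mt-Cyt, Cox4i, Cox5, Cox6, Cox7 or Cox8, together with Sdha, Sdhb, Sdhc, Sdhd, Cyc1 and Cycs. The rule uses names and no measured value, and 109 of the 55471 gene identifiers in the table met the rule, 96 encoded in the nucleus and 13 in mitochondrial DNA. By complex they divide into 51 genes of complex I, 4 of complex II, 10 of complex III, 23 of complex IV, 20 of complex V (ATP synthase) and Cycs, the gene of cytochrome c. Another 13 symbols that begin in the same way belong to pseudogenes or noncoding RNAs and were left out.

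RNA sequencing was done on 12 biologically independent lines of Ba/F3, an immortal mouse cell line labelled as pro-B, in 3 groups of 4 lines. SFPQ-ABL1 lines and BCR-ABL1 lines each carried an ABL1 fusion, a tyrosine kinase oncogene, were transformed by it, and were grown without IL-3. MSCV lines carried the empty vector and were grown with murine IL-3 at 0.5 ng/ml, the cytokine on which untransformed Ba/F3 cells depend. In each comparison with MSCV, the fusion and the absence of IL-3 therefore cannot be told apart, while SFPQ-ABL1 and BCR-ABL1 lines shared the same medium. The labels give no other treatment of any line. In bulk RNA, fewer cells that express a gene and less RNA per cell cannot be told apart.

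The respiratory chain passes electrons from NADH (complex I) and succinate (complex II) through ubiquinone, complex III and cytochrome c to oxygen at complex IV, and complex V makes ATP from the proton gradient that complexes I, III and IV build. Mitochondrial DNA encodes the membrane core of complexes I, III, IV and V, and the nucleus encodes the remaining subunits and all of complex II, so each of the mixed complexes needs transcripts of both genomes. Several nuclear subunits of complex IV have a second gene used in heart and skeletal muscle, lung or testis, and Cox6a2 is the heart and muscle form of subunit VIa, whose widely expressed form is Cox6a1.

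The sequences of a pair of isoform genes and of a mitochondrial gene with a nuclear copy are shown first, because they bear on which reads can be assigned to a gene. The coding sequences of Cox6a2 (chr7:128205435-128206387, minus strand, mm10) and Cox6a1 (chr5:115345642-115348981, minus strand, mm10) were 294 and 339 bases long in GENCODE M21. They were identical at 192 of 294 aligned positions (65.3%). Cox6a2 is shown whole and Cox6a1 from base 46 to base 339, and the capitals mark their longest identical run, of 12 bases.
Cox6a2: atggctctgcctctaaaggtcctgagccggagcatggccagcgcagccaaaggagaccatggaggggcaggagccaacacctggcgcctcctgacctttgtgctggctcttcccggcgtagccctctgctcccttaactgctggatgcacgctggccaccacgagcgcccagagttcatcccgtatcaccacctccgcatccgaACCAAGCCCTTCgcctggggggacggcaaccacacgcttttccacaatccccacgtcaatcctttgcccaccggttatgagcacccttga
Cox6a1: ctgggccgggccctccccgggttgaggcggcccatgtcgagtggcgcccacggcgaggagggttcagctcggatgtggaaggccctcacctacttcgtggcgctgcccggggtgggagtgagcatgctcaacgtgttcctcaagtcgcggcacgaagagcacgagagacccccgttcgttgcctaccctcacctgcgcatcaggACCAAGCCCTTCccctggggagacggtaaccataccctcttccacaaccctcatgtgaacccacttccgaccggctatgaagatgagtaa
Cox6a2 lies inside the span of another gene, Itgad, on the opposite strand. In annotated transcripts, the only sequences searched here and below, no 100-base window of Cox6a2 occurred in another gene. The first 60 bases of mt-Co2 (chrM:7013-7696, plus strand), which encodes subunit 2 of complex IV, and of the pseudogene Gm28661 (chr1:24614885-24615565) are the opposite case. These 2 genes were identical at all 681 aligned positions, so a read cannot be assigned to either by its sequence.
mt-Co2: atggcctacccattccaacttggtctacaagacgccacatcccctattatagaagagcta
Gm28661: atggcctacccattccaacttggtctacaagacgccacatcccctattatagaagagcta

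Gene totals ran from 59355018 to 80616227 counts per library, and 104 of the 109 genes passed the filter on low counts. The genes left untested were Cox6b2, Cox7b2, Cox8b, Cox8c and ENSMUSG00000116933, a second identifier with the symbol Atp5o that had no count in any library. Of 15 marker genes of pro-B and early B cells, 3 (Cd79a, Cd79b and Ptprc) reached a group mean of 1 CPM (counts scaled to a common library size), and Pax5, Ebf1, Rag1 and Il7r were at or near 0 in all 3 groups. The pro-B name is that of the labels, and few of these 15 markers bear it out here. The summed level of 8 mast cell markers was 807 to 1368 CPM in SFPQ-ABL1 lines, 1340.5 to 1583 CPM in BCR-ABL1 lines and 1356 to 1643 CPM in MSCV lines, nearly all of it Gata2 (means of 955, 1445 and 1524 CPM). Cpa3, a mast cell protease, averaged 0.643, 13.05 and 0.209 CPM in SFPQ-ABL1, BCR-ABL1 and MSCV lines, and Ms4a2, a chain of the IgE receptor, 9.44, 6.43 and 12.5 CPM. Fcer1a averaged 0.0352, 0.697 and 0.00336 CPM in these groups, and Kit had 1 count in all. The sum of 10 granulocyte and monocyte markers was 135 to 474, 73.2 to 149 and 177 to 534 CPM in the same groups, without overlap between BCR-ABL1 and MSCV lines. Most of it was Prtn3 (means of 231, 51.4 and 227 CPM) and Cebpe (71.8, 42.8 and 78.8 CPM). Ctsg, S100a8 and S100a9 were instead higher in BCR-ABL1 lines (0.101, 0.0859 and 0.277 CPM) than in MSCV lines (0, 0 and 0.0629 CPM), at low levels. The sum of 6 erythroid markers was 266 to 1252, 185 to 625 and 432 to 1146 CPM in SFPQ-ABL1, BCR-ABL1 and MSCV lines. The part of these cell state markers in the results was not tested.

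MSCV line 2 stood apart for the nuclear subunits, and the counts of calls and the medians of the nuclear and mitochondrial genes below are also given without it. Across 79 widely expressed nuclear subunit genes, those other than assembly factors and tissue-restricted isoforms, the median deviation from the mean of all 12 lines was 0.46 in MSCV line 2 on the log2 scale. In the other 11 lines it lay between -0.16 and 0.17. The same line was also high for 403 other protein-coding genes with an exon length under 1500 bases (median deviation 0.34) and low for 4033 genes over 5000 bases (-0.12). It was high for mitochondrial ribosomal protein genes as well (0.29). For cytosolic ones it had 0.22, below the 0.24 of BCR-ABL1 line 3. The median exon length of the nuclear subunit genes was 1756 bases, and 34 of the 79 were under 1500 bases. The part of transcript length or RNA quality in the levels of this line was not tested.

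**Figure D1:**
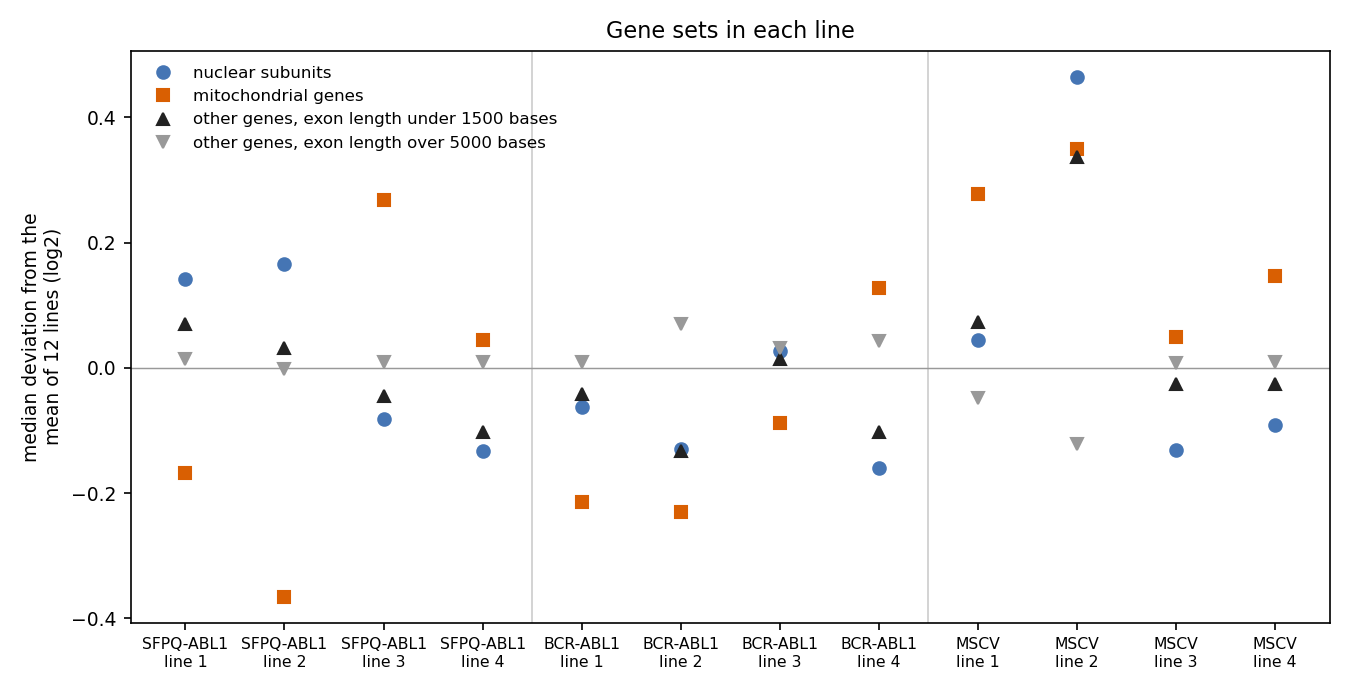
Median deviation of gene sets in each of the 12 lines from the mean over all lines (log2 scale; 79 nuclear subunit genes, 13 mitochondrial genes, and other protein-coding genes of at least 10 CPM by exon length). MSCV line 2 has the highest value of nuclear subunits (0.46) and of short genes (0.34) and the lowest of long genes (-0.12).

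Respiratory chain transcripts were abundant in all lines. In RPKM, the CPM divided by the exon length in kilobases, the median of the 79 widely expressed nuclear subunit genes was 56.0 in MSCV lines, and 72 of them lay above 4.24, the median of 17176 tested genes with a length. By complex, the median RPKM of nuclear subunits in SFPQ-ABL1, BCR-ABL1 and MSCV lines was 37.9, 38.4 and 40.3 for complex I (36 genes) and 53.0, 50.8 and 53.1 for complex II (4 genes). It was 79.6, 69.5 and 86.0 for complex III (9 genes), 149, 127 and 158 for complex IV (12 genes) and 63.6, 57.9 and 75.5 for complex V (17 genes). Complex IV had the highest and complex I the lowest median in each of the 3 groups. The highest nuclear gene was Ndufa1 in MSCV lines (445 RPKM), an accessory subunit of the membrane arm of complex I, while Cox6b1 was the highest in complex IV and Atp5a1, the alpha subunit of ATP synthase, in complex V in each group. The lowest genes in MSCV lines were Ndufb4 in complex I (1.13 RPKM), Atp5l in complex V (1.10 RPKM) and Cox7c in complex IV (6.89 RPKM). For Atp5l the RPKM divides by an exon length of 6443 bases. Of its 100-base windows 4.70% occur in other annotated genes, so this level is uncertain. Of the 109 genes, 21 had over 10% of their 100-base windows in another annotated gene, among them Ndufaf2 (62.4%), Atp5g2 (34.7%), Atp5o (27.9%), Ndufb6 and Ndufa13 (24.0% each), Cox7c (16.2%) and Ndufb4 (16.0%), and the levels of these are uncertain. None of the nuclear genes that passed a test with all lines was among them. The read length is not given in the sources used here, and with windows of 50 bases the shares are larger, as for Ndufb11 (17.5%, against 2.23% at 100 bases), which passed in BCR-ABL1 lines against MSCV, and for mt-Co1 (51.1%). These are levels of RNA and not of protein.

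Cox6a2 had the largest difference of all 104 tested genes, and it belonged to BCR-ABL1 lines. SFPQ-ABL1 lines 1 to 4 had 6, 12, 4 and 22 counts of Cox6a2, which are 0.0804, 0.156, 0.0486 and 0.360 CPM. BCR-ABL1 lines had 101, 355, 315 and 1245 counts, or 1.36, 4.86, 4.78 and 19.3 CPM. MSCV lines had 5, 2, 2 and 1 counts, or 0.0629, 0.0269, 0.0264 and 0.0153 CPM. Every BCR-ABL1 line lay above every line of the other 2 groups, line 4 was by far the highest, and the SFPQ-ABL1 and MSCV lines overlapped. In BCR-ABL1 lines the log2 fold change against MSCV was 7.74 ± 0.95 (SE), with an adjusted p of 0.0001 in edgeR's quasi-likelihood test. Summed over lines, 2016 counts stood against 10, a ratio per read of 212 with an exact 95% interval of 115 to 443 that covers counting error only. In SFPQ-ABL1 lines the log2 fold change against BCR-ABL1 was -5.59 ± 0.81 (adjusted p = 0.000481) and that against MSCV was 2.15 ± 1.05 (adjusted p = 0.296), so only the first passed the test. Without BCR-ABL1 line 4 the log2 fold change was 6.69 against MSCV and -4.54 for SFPQ-ABL1 against BCR-ABL1, and both passed (adjusted p = 0.000112 and 0.000679). Without MSCV line 1 that against MSCV was 8.25, and without SFPQ-ABL1 line 4 that of SFPQ-ABL1 against BCR-ABL1 was -6.30. Without MSCV line 2 the value against MSCV was 7.65. Neither call was lost under any of the 21 alternatives tried. Each alternative kept BCR-ABL1 lines in which the gene was high, so this adds no support.

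Cox6a2 remained the minor form of its pair. Per length, it made up 1.06, 3.86, 3.29 and 16.6% of the summed level of Cox6a2 and Cox6a1 in BCR-ABL1 lines 1 to 4. The share was at most 0.304% in SFPQ-ABL1 lines and at most 0.0374% in MSCV lines. Cox6a1 itself did not pass the test in BCR-ABL1 lines against MSCV (log2 fold change -0.35 ± 0.18, adjusted p = 0.151). In the deposited exon counts, all 3 exons of Cox6a2 had counts in BCR-ABL1 lines 2, 3 and 4, and line 1 had counts in all but the exon at chr7:128205435-128205812. They summed to 4, 21, 13 and 58 counts in BCR-ABL1 lines 1 to 4, which are 96 against the 2016 of the gene table, or 4.76%. The exon table as a whole held 16.7 to 19.7% of the gene table's counts per library, and for Cox6a1 8.24%. Only a single count in SFPQ-ABL1 line 2 and a single count in MSCV line 4 fell on any of these exons in the other 2 groups.

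The gene lies inside the span of the integrin gene Itgad on the opposite strand, and the use of strand in counting is not given in the sources used here. Itgad itself was too low to be tested, with means of 0.0123, 0.303 and 0.0214 CPM in SFPQ-ABL1, BCR-ABL1 and MSCV lines. The neighbours 9130023H24Rik, Armc5 and Tgfb1i1 passed in no comparison (adjusted p 0.0638 or more). The summed level of 14 striated muscle and heart markers was 11.7 to 18.2 CPM in SFPQ-ABL1 lines, 14.2 to 16.7 in BCR-ABL1 lines and 12.3 to 19.1 in MSCV lines, and the ranges overlapped. Most of it was Ckm, the muscle creatine kinase, with group means of 13.3, 13.01 and 13.7 CPM in SFPQ-ABL1, BCR-ABL1 and MSCV lines. Des averaged 0.682, 1.16 and 0.820 CPM in the same groups and Myh7 0.0531, 0.149 and 0.0202 CPM, both highest in BCR-ABL1 lines. Myl2 averaged 0.306, 0.457 and 0.565 CPM and Acta1 0.149, 0.216 and 0.232 CPM, both highest in MSCV lines. Actc1 and Myl1 had no count in any library, and Mb, the gene of myoglobin, had 1 count in all.

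Among the other tissue-restricted isoforms, Ndufa4l2, a paralog of Ndufa4 known as a target of hypoxia signalling, was also highest in BCR-ABL1 lines, at far lower counts. SFPQ-ABL1 lines had 6, 7, 4 and 5 counts, BCR-ABL1 lines 19, 13, 34 and 17, and MSCV lines 9, 10, 4 and 4. The BCR-ABL1 lines overlapped with neither of the other groups. Ndufa4l2 was 3.28-fold higher in BCR-ABL1 than in MSCV lines (adjusted p = 0.00714) and 3.96-fold lower in SFPQ-ABL1 than in BCR-ABL1 lines (adjusted p = 0.00477). Even so it was at most 0.420% of the pair with Ndufa4 per length. Cox6a2 and Ndufa4l2 passed the filter on low counts only through the BCR-ABL1 lines in which they were high: a fit on SFPQ-ABL1 and MSCV lines alone left 102 genes to test and not these 2, so their calls are no support for the group.

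Cox4i2, the form of subunit IV known from lung, had 0.187, 0.312, 0.268 and 0.507 CPM in SFPQ-ABL1 lines and 0.728, 0.644, 0.774 and 1.27 CPM in BCR-ABL1 lines, which did not overlap. MSCV lines, at 0.503, 0.229, 0.304 and 0.798 CPM, overlapped with both. It was 2.69-fold lower in SFPQ-ABL1 than in BCR-ABL1 lines (adjusted p = 0.0218), a call lost without BCR-ABL1 line 4 or without SFPQ-ABL1 line 1 or 3. Cox7a1, the muscle form of subunit VIIa, averaged 1.81 ± 0.51, 2.02 ± 0.35 and 2.39 ± 0.49 CPM in SFPQ-ABL1, BCR-ABL1 and MSCV lines (SD, n = 4 each) and passed in no comparison. Cox6b2 had at most 8 counts and Cox8c at most 2 in a library. Cox7b2 and Cox8b had none, which at 3 counts allows up to 0.0505 CPM in the shallowest library.

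**Figure D2:**
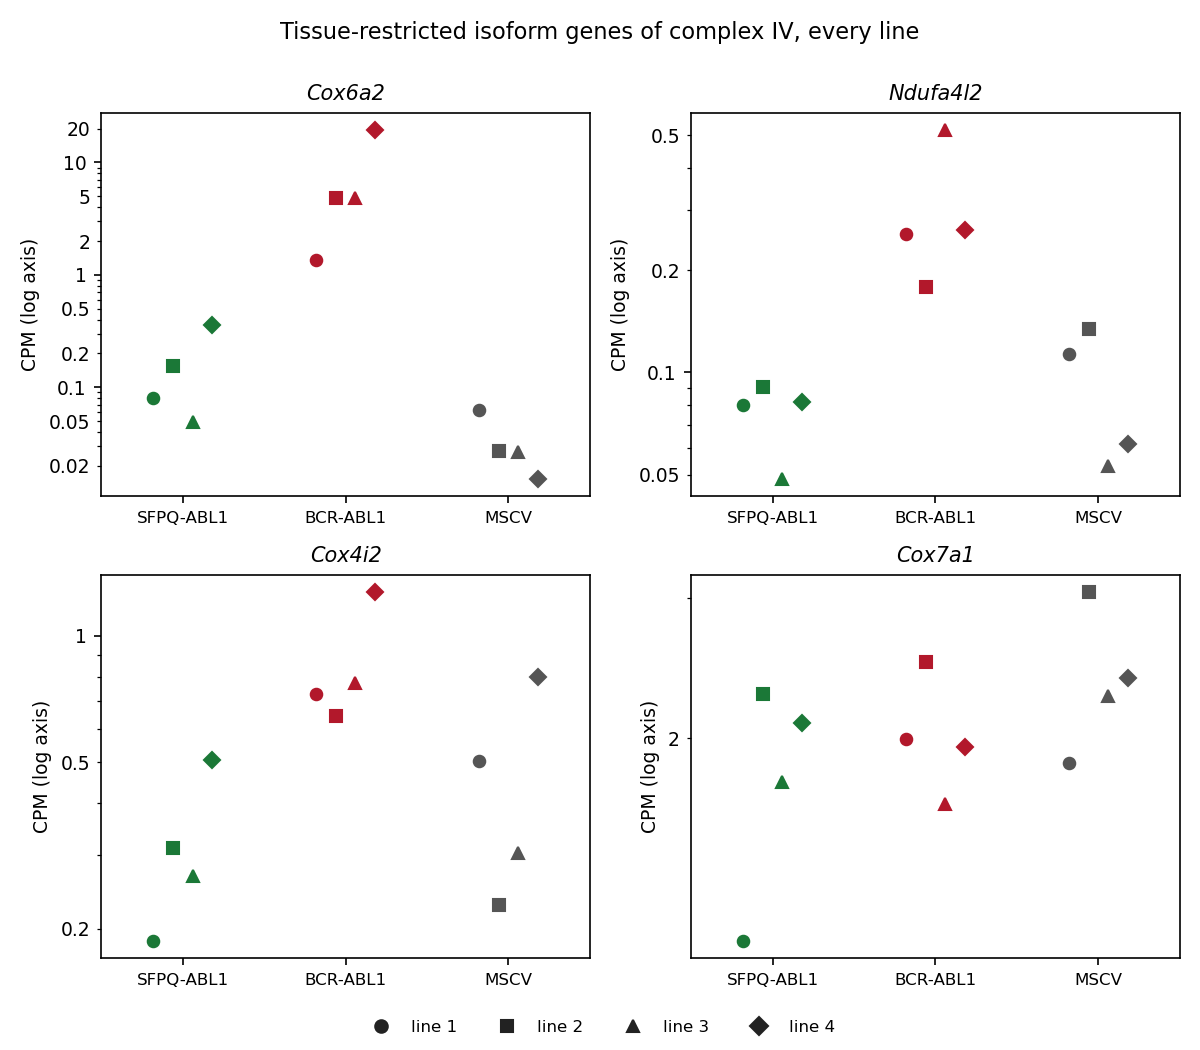
CPM of the 4 tested tissue-restricted isoform genes in each line, by group (log axes with different ranges; symbols mark lines 1 to 4). The BCR-ABL1 lines of Cox6a2 span 1.36 to 19.3 CPM and lie above all SFPQ-ABL1 and MSCV lines, while the 3 groups of Cox7a1 overlap.

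The first comparison asked how the chain differed between BCR-ABL1 lines, grown without IL-3, and MSCV lines. Of the 104 tested genes 16 passed at an adjusted p under 0.05, which is 15.4%, against 32.1% of all 17197 genes tested. At an unadjusted p under 0.05 there were 35, against 42.9% of all genes. Of the 16, 3 were higher (background 15.8%) and 13 lower (background 16.3%). The higher genes were Cox6a2, Ndufa4l2 and Ndufaf4. In complex I 1 gene was called higher and 7 lower of 51, in complex II none of 4 passed, and in complex III none was called higher and 3 lower of 10. In complex IV 2 were called higher and 1 lower of 19, and in complex V none higher and 2 lower of 19. Lines of both groups did not overlap for 26 of the 104 genes, against 31.6% of all genes. The share called was thus below that among all genes. Without BCR-ABL1 line 4, and likewise without MSCV line 1, 9 genes were called, against 26.2 and 30.1% of all genes in these fits.

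In complex I the lower genes were mostly small accessory subunits. Ndufa1 had 106, 123, 109 and 97.3 CPM in BCR-ABL1 lines, against 190.3, 226, 158 and 172 CPM in MSCV lines. The groups did not overlap, and Ndufa1 fell 1.71-fold (log2 fold change -0.78 ± 0.11, adjusted p = 0.000276). Ndufb10, Ndufb3, Ndufb11 and Ndufb7, all of the membrane arm, fell by 0.50, 0.37, 0.31 and 0.47 on the log2 scale, with adjusted p-values of 0.0116, 0.0168, 0.035 and 0.0461. Both calls among the 8 assembly factors with Ndufaf symbols went in opposite directions. Ndufaf4 had 47.1, 41.8, 44.1 and 41.0 CPM in BCR-ABL1 lines, against 34.2, 26.2, 17.4 and 16.8 CPM in MSCV lines, and rose 1.84-fold (adjusted p = 0.0152). Ndufaf3, its partner in assembly, fell 1.32-fold to 17.6 ± 1.77 CPM in BCR-ABL1 lines, against 23.2 ± 3.56 CPM in MSCV lines (adjusted p = 0.0214).

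Complex III had its largest differences in Uqcrh, the hinge protein next to cytochrome c1. It had 255, 210.2, 221 and 204 CPM in BCR-ABL1 lines, against 352, 447, 339.8 and 329 CPM in MSCV lines. No BCR-ABL1 line reached the lowest MSCV line, and Uqcrh fell 1.65-fold (log2 fold change -0.72 ± 0.11, adjusted p = 0.000335). Uqcr11, a further small subunit, had 47.5, 46.3, 45.3 and 39.0 CPM in BCR-ABL1 lines, against 66.5, 110.0, 51.3 and 52.6 CPM in MSCV lines. It fell by 0.66 on the log2 scale (adjusted p = 0.0396), and without MSCV line 2 the value was -0.35 (adjusted p = 0.128). In complex V the peripheral stalk subunit Atp5j and the F1 subunit Atp5e fell by 0.49 and 0.40 on the log2 scale (adjusted p = 0.0284 and 0.0379). In complex IV the only subunit called as lower was Ndufa4 (by 0.42, adjusted p = 0.0449), a complex IV subunit in spite of its name. Of the 19 tested genes of complex IV, 15 had log2 fold changes below 0.

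Complex II, Cyc1 and Cycs showed no call in this comparison. Sdha, the flavoprotein of complex II that oxidises succinate, had 240.4, 239.8, 239 and 235 CPM in BCR-ABL1 lines, against 263, 289, 268 and 277 CPM in MSCV lines. The lines did not overlap, but the difference of -0.20 ± 0.08 on the log2 scale missed the threshold (adjusted p = 0.0552). Sdhb, Sdhc and Sdhd, the iron-sulfur subunit and the membrane anchors, differed by 0.14, -0.09 and -0.20. Cyc1, the cytochrome of complex III, differed by 0.17 ± 0.16 and Cycs by 0.55 ± 0.27 (adjusted p = 0.452 and 0.129). Of the 100-base windows of Cycs, 22.6% also occur in another annotated gene, so its level is uncertain.

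As a group the 79 widely expressed nuclear subunits had a median log2 fold change of -0.18, with 59 below 0, where all genes tested had a median of -0.01. Without MSCV line 2 the median was -0.04 and 45 were below 0, so the median of the nuclear subunits moved with that line. The count of calls was then 13 of 104, against 30.1% of all genes in that fit, with 8 higher and 5 lower, and 8 of these were among the 16. Ndufa1, Ndufb10, Ndufb3, Uqcrh, mt-Cytb, Cox6a2, Ndufa4l2 and Ndufaf4 kept their calls. The calls on Uqcr11, Atp5j, Atp5e, Ndufa4, Ndufb7, Ndufb11, Ndufaf3 and mt-Nd6 were lost (adjusted p 0.0515 to 0.143). Ndufa9, Uqcrq, Cox5a, Atp5b and Cycs were called as higher instead, with log2 fold changes of 0.31, 0.67, 0.44, 0.35 and 0.88, against 0.19, 0.40, 0.26, 0.15 and 0.55 with all lines. Over 21 alternatives, the calls on Ndufa1, Uqcrh, mt-Cytb and Ndufaf4 were never lost. That on Ndufb10 was lost under 1 and those on Ndufb3 and mt-Nd6 under 2 each. The calls on Ndufaf3, Atp5j, Ndufb11, Atp5e, Uqcr11 and Ndufa4 were lost under 4, 5, 7, 8, 8 and 9. The nuclear subunits also varied more among MSCV lines than among the others. Their median coefficient of variation was 11.6% in SFPQ-ABL1, 8.54% in BCR-ABL1 and 20.2% in MSCV lines.

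**Figure D3:**
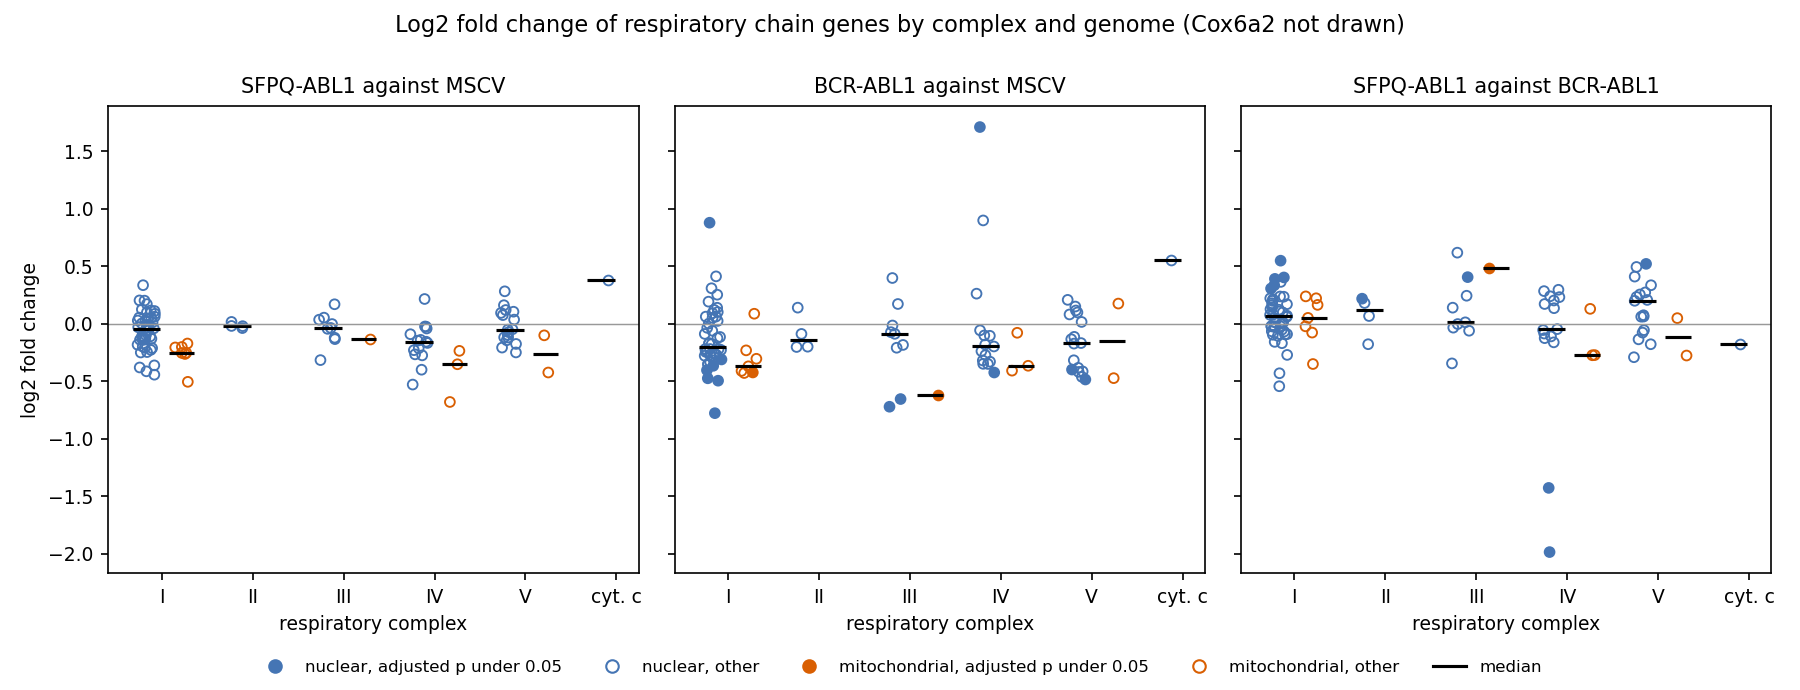
Log2 fold change of each tested gene by complex and genome in the 3 comparisons (filled points passed at an adjusted p under 0.05, bars are medians, Cox6a2 lies outside the axis and is not drawn). All 13 mitochondrial genes lie below 0 in SFPQ-ABL1 against MSCV and 11 of 13 in BCR-ABL1 against MSCV.

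The genes of mitochondrial DNA could be read only in part. Per length, mt-Co1, mt-Nd1, mt-Cytb, mt-Nd2, mt-Nd5, mt-Nd6 and mt-Nd4 lay between 523 and 6602 RPKM in MSCV lines, and mt-Co1, the catalytic core of complex IV, ranked 3rd of 17176 genes. The other 6 lay between 9.04 and 87.5 RPKM, although the same long precursor RNA holds most of them. Of these 6, mt-Co2, mt-Co3, mt-Atp6, mt-Nd4l and mt-Nd3 had 97.6 to 99.9% of their 100-base windows in another annotated gene, as the mt-Co2 sequence above shows for Gm28661. The main copies, including those of mt-Nd4 and mt-Co1 below, are the pseudogenes Gm28661, Gm28437, Gm10925, Gm10222, Gm28438, Gm28439 and Gm29216 in a stretch of chr1:24611535-24616197. On chromosome 2, Gm13341 holds 15.04% of the windows of mt-Co2, Gm13340 5.53% of those of mt-Co1 and Gm13339 those that mt-Nd2 shares. Gm28661 itself averaged 19.9, 19.6 and 30.7 CPM in SFPQ-ABL1, BCR-ABL1 and MSCV lines, beside 35.2, 42.6 and 56.5 CPM of mt-Co2. mt-Atp8, the remaining gene (chrM:7766-7969), follows mt-Co2 and overlaps the start of mt-Atp6 (chrM:7927-8607). Its own annotated sequence had no such window, but copies outside annotated transcripts were not searched. The shares of windows were 60.8% for mt-Nd4 and 30.8% for mt-Co1, 3.20% for mt-Nd2, and 0 for mt-Nd1, mt-Nd5, mt-Nd6 and mt-Cytb. How reads with several matches were counted is not given in the sources used here, so the levels of the genes with copies are uncertain.

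**Figure D4:**
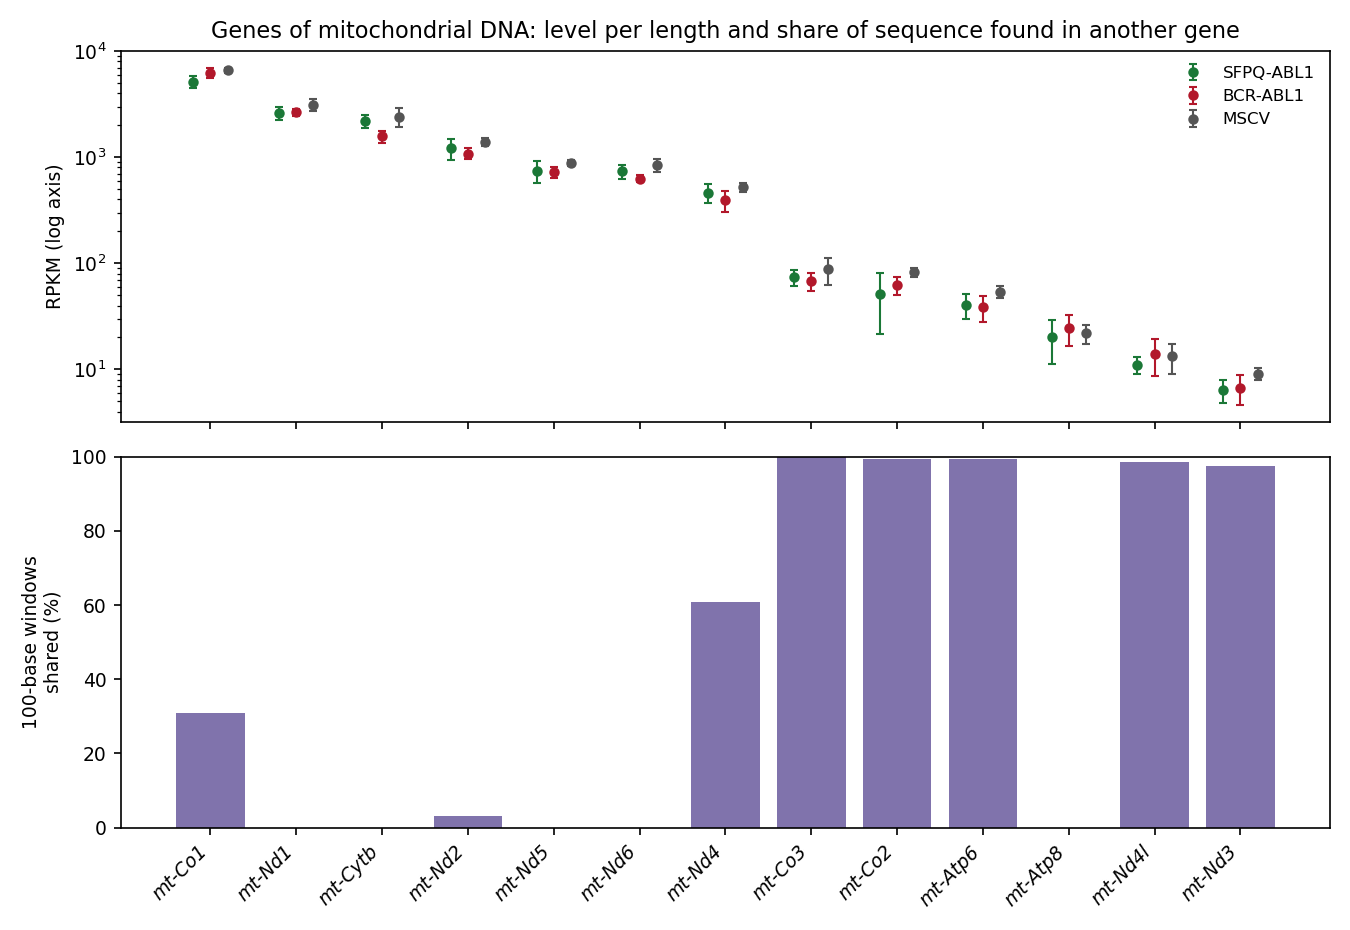
Level per length of the 13 genes of mitochondrial DNA (upper panel, mean and SD of 4 lines, log axis) and share of their 100-base windows that occur in another annotated gene (lower panel). The 5 genes with shares of 97.6% or more lie below 100 RPKM in each group, and mt-Co1 has the highest level.

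Together the 13 mitochondrial genes held 1.64, 1.42, 1.93 and 1.91% of all counts in SFPQ-ABL1 lines 1 to 4, 1.63, 1.61, 1.67 and 1.93% in BCR-ABL1 lines and 2.17, 2.13, 1.80 and 1.96% in MSCV lines. The MSCV mean of 2.02 ± 0.17% was the highest, against 1.73 ± 0.24% in SFPQ-ABL1 and 1.71 ± 0.15% in BCR-ABL1 lines (SD, n = 4 each), but single lines of both other groups reached into its range. The 96 nuclear genes held 1.13 ± 0.12%, 1.01 ± 0.05% and 1.14 ± 0.21% of counts in SFPQ-ABL1, BCR-ABL1 and MSCV lines. mt-Co1 alone made up 47.7 ± 2.85%, 55.4 ± 1.77% and 50.2 ± 2.62% of the mitochondrial counts, and its share was higher in each BCR-ABL1 line than in any line of the other groups.

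In BCR-ABL1 lines against MSCV the median log2 fold change of the mitochondrial genes was -0.37, with 11 of 13 below 0, and it was -0.31 without MSCV line 2. Only mt-Cytb and mt-Nd6 passed the test. mt-Cytb, which encodes the haem-bearing core of complex III, had 1681, 1504, 1958 and 2037 CPM in BCR-ABL1 lines, against 2907, 3444, 2214 and 2478 CPM in MSCV lines. The groups did not overlap, and it fell 1.54-fold (log2 fold change -0.62 ± 0.15, adjusted p = 0.00762). mt-Nd6, a complex I gene on the other strand of mitochondrial DNA, had 333, 322, 294 and 358 CPM in BCR-ABL1 lines, against 426, 527, 386 and 414 CPM in MSCV lines, and fell 1.34-fold (adjusted p = 0.0169). mt-Co1 and mt-Nd1 differed by -0.08 ± 0.11 and -0.23 ± 0.12 (adjusted p = 0.63 and 0.171). Whether mt-Cytb and mt-Co1 differed from each other in this respect was not tested.

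In SFPQ-ABL1 lines against MSCV none of the 104 genes passed in edgeR's test, where 1.79% of all genes did (0.814% higher and 0.977% lower). At an unadjusted p under 0.05 there were 9 genes, against 18.6% of all genes. DESeq2 called 2 genes (6.58% of all genes) and limma-voom none (1.66%). An edgeR fit with the replicate number as a block called 2 (4.22%). The lowest adjusted p-values belonged to the complex I accessory subunits Ndufa6 and Ndufa1. Ndufa6 had 91.4, 120.0, 112 and 118 CPM in SFPQ-ABL1 lines, against 149, 146, 136 and 158 CPM in MSCV lines. Ndufa1 had 148, 137, 132 and 131 CPM in SFPQ-ABL1 lines, against the MSCV values given above. Neither overlapped between the groups, with log2 fold changes of -0.41 ± 0.10 and -0.44 ± 0.11 and adjusted p-values of 0.0604 and 0.063. Ndufa6 and Ndufa1 were the genes called by DESeq2 and in the fit with the block. Lines did not overlap for 5 of the 104 genes, against 11.2% of all genes.

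All 13 mitochondrial genes had log2 fold changes below 0 in this comparison, with a median of -0.25 (-0.21 without MSCV line 2), and none passed. The value furthest below was -0.68 ± 0.30 for mt-Co2 (adjusted p = 0.247), whose sequence is shared with Gm28661. In SFPQ-ABL1 lines mt-Co2 had 18.0, 23.7, 63.8 and 35.3 CPM, against 51.0, 64.4, 53.1 and 57.4 CPM in MSCV lines, and line 3 lay inside the MSCV range. Without SFPQ-ABL1 line 3 the value was -1.14 and passed (adjusted p = 0.0388), the only call of this comparison when single lines were left out. mt-Co1 had 7016, 7136, 8690 and 9112 CPM in SFPQ-ABL1 lines, against 11005, 10064, 9546 and 10183 CPM in MSCV lines, without overlap (log2 fold change -0.35 ± 0.11, adjusted p = 0.119). The median of the 79 nuclear subunits was -0.05 with all lines and 0.07 without MSCV line 2, when 24 of 79 lay below 0 in place of 52, so its sign turned with that line. Both comparisons with MSCV share the same 4 MSCV lines, and their values are given side by side only.

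SFPQ-ABL1 and BCR-ABL1 lines, both without IL-3, were compared directly. Of the 104 genes 12 passed, or 11.5%, against 26% of all genes, with 9 higher (background 13.2%) and 3 lower (background 12.8%) in SFPQ-ABL1 lines. At an unadjusted p under 0.05 there were 25, against 38.6% of all genes. The lower genes were Cox6a2, Ndufa4l2 and Cox4i2. By complex, 5 of 51 genes of complex I, 1 of 4 of complex II, 2 of 10 of complex III and 1 of 19 of complex V were higher and none lower, and 3 of 19 of complex IV were lower and none higher. Lines did not overlap for 20 of the 104 genes, against 27.9% of all genes. The median of the 79 nuclear subunits was 0.08 and that of the mitochondrial genes 0.05, both the same without MSCV line 2 to 2 decimals, where all genes had 0.01. The count was 6 without BCR-ABL1 line 4, SFPQ-ABL1 line 1 or SFPQ-ABL1 line 3, and 19 without MSCV line 2, a line outside this comparison that enters the shared estimate of spread. Of all genes, 20.8, 21.6, 18.1 and 28.8% were called in these fits, in the same order.

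Ndufb10 had 70.4, 63.2, 63.3 and 62.3 CPM in SFPQ-ABL1 lines, against 48.8, 38.8, 51.1 and 38.4 CPM in BCR-ABL1 lines. The groups did not overlap, and the gene was 1.46-fold higher in SFPQ-ABL1 lines (log2 fold change 0.55 ± 0.13, adjusted p = 0.00872). Uqcrh had 299.8, 304, 289 and 286 CPM in SFPQ-ABL1 lines, against 255, 210.2, 221 and 204 CPM in BCR-ABL1 lines. All SFPQ-ABL1 lines of Uqcrh lay between the BCR-ABL1 and the MSCV lines, and the log2 fold change against BCR-ABL1 was 0.41 ± 0.11 (adjusted p = 0.0144). Atp5j had 186, 155, 151 and 132 CPM in SFPQ-ABL1 lines, against 115, 114, 109 and 96.2 CPM in BCR-ABL1 lines, a log2 fold change of 0.52 ± 0.15 (adjusted p = 0.025). Over the alternatives, the calls on Ndufb10 and Uqcrh were never lost. Nor were those on Cox6a2 and Ndufa4l2, but these genes entered the test only through the BCR-ABL1 lines where they were high. For them this adds no support.

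The other higher genes were Ndufaf7, Ndufv2, Ndufa1, Ndufa8, mt-Cytb and Sdha. Ndufaf7, a methyltransferase needed for the assembly of complex I, and Ndufv2, an iron-sulfur subunit of its NADH-binding arm, were 0.39 and 0.40 higher on the log2 scale (adjusted p = 0.0317 and 0.0413). Ndufa1 had 148, 137, 132 and 131 CPM in SFPQ-ABL1 lines, against 106, 123, 109 and 97.3 CPM in BCR-ABL1 lines, and was 0.33 higher (adjusted p = 0.0415). Ndufa1 was highest in MSCV lines, so the SFPQ-ABL1 lines lay between the other groups, as for Uqcrh. mt-Cytb had 2708, 1987, 2732 and 2616 CPM in SFPQ-ABL1 lines, against 1681, 1504, 1958 and 2037 CPM in BCR-ABL1 lines. SFPQ-ABL1 line 2 fell inside the BCR-ABL1 range, and the log2 fold change was 0.48 ± 0.15 (adjusted p = 0.0329). Sdha differed by 0.22 ± 0.08 (adjusted p = 0.0476), with 274, 306, 274 and 255 CPM in SFPQ-ABL1 lines above the 235 to 240.4 CPM of BCR-ABL1 lines. The calls on Sdha, Ndufa8, Ndufa1 and Ndufv2 were lost under 15, 12, 9 and 6 of 21 alternatives, and those on mt-Cytb and Ndufaf7 under 5 each. That on Atp5j was lost under 3. Ndufaf4 had 45.9, 25.3, 24.2 and 24.0 CPM in SFPQ-ABL1 lines, so that line 1 alone lay within the BCR-ABL1 range, and without that line it passed as lower in SFPQ-ABL1 lines (log2 fold change -0.83, adjusted p = 0.0155).

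**Figure D5:**
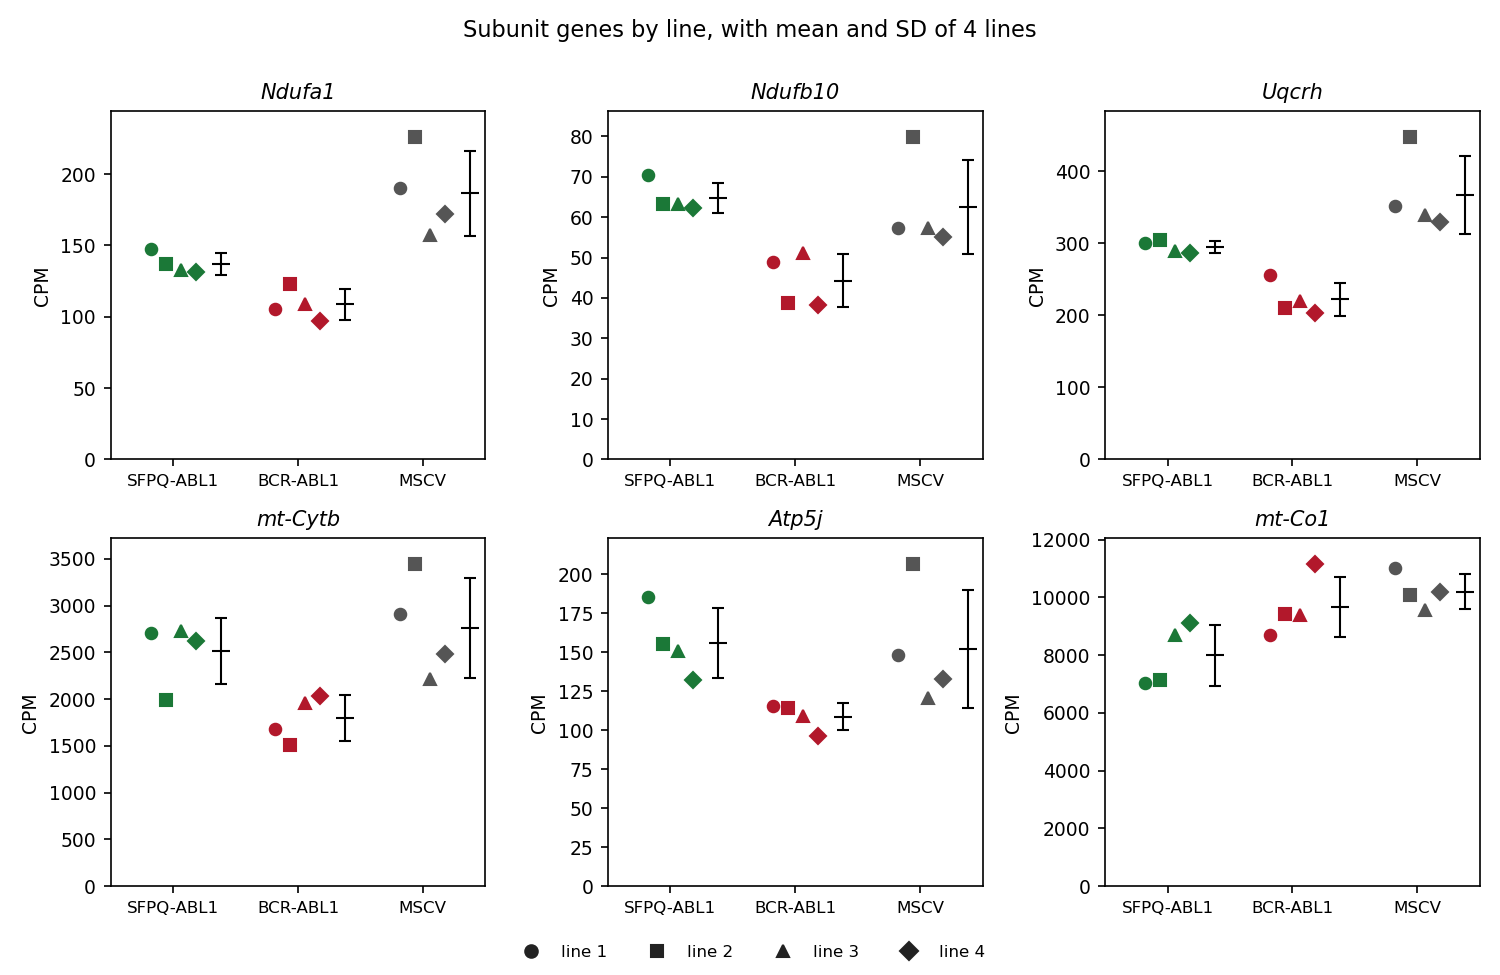
CPM of 6 subunit genes in each line, by group, with the mean and SD of 4 lines (symbols mark lines 1 to 4, axes start at 0). For Ndufa1 and Uqcrh the SFPQ-ABL1 lines lie between the BCR-ABL1 and MSCV lines, and MSCV line 2 is the highest MSCV line in each panel except that of mt-Co1.

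Promoters of nuclear respiratory genes are known for binding sites of the ETS factor GABP (NRF2) and of YY1. RefSeq promoter windows of GRCm38.p6, 250 bases before to 50 after a start, were matched for 77 of the 96 nuclear genes through their gene identifiers. On either strand, CCGGAAG (ETS) occurred in 18 of 77 (23.4%), against 12.9% of 17492 protein-coding genes, and AAGATGGCG (YY1) in 8 of 77 (10.4%), against 2.14%. A motif of the factor NRF1 was searched as well and occurred in 7 of 77 (9.09%), against 1.47%. Shown are the windows of Uqcrh, called in both comparisons that hold BCR-ABL1 lines (chr4:116075021-116075320, minus strand), and 1 of the 2 windows of Atp5j (chr16:84834927-84835226, minus strand), with the motifs in capitals.
Uqcrh: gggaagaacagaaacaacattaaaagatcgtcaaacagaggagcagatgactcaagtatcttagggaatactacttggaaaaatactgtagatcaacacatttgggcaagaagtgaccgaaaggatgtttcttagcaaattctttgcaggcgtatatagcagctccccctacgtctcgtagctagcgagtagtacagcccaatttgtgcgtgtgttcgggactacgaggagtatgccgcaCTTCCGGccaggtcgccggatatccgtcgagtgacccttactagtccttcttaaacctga
Atp5j: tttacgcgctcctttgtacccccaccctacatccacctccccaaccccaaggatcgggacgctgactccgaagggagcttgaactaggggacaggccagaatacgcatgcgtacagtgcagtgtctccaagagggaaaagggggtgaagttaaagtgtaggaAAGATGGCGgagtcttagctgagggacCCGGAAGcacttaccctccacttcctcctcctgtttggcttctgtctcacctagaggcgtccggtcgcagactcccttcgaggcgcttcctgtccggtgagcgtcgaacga
The Uqcrh window holds CTTCCGG, the ETS motif read on the other strand, at position -10 from the start. The Atp5j window shown holds the YY1 motif at -88 and the ETS motif at -61. The other Atp5j window (chr16:84835576-84835875, minus strand) held no motif that was searched. The windows of Ndufa1 and Ndufb10 held none of these motifs. A match of letters is a description and shows no binding.

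Genes that serve the chain without being part of it were read from 5 lists. Their calls are to be read beside those among all genes, which were 15.8% higher and 16.3% lower in BCR-ABL1 lines against MSCV, 0.814% and 0.977% in SFPQ-ABL1 lines against MSCV, and 13.2% and 12.8% in SFPQ-ABL1 lines against BCR-ABL1. Of 19 tested genes of mitochondrial RNA handling, 10 were higher and 2 lower in BCR-ABL1 lines than in MSCV lines. Fastkd2 and Trmt10c, which act in the maturation of mitochondrial RNA, averaged 37.0 ± 1.64 and 34.4 ± 2.87 CPM in BCR-ABL1 lines, against 25.2 ± 2.21 and 23.4 ± 3.16 CPM in MSCV lines (log2 fold change 0.55 and 0.56, adjusted p = 0.00101 and 0.00217). Pnpt1, a mitochondrial RNA exonuclease, averaged 128 ± 14.3 CPM in BCR-ABL1 lines, against 86.9 ± 5.35 CPM in MSCV lines (adjusted p = 0.00257). The median of this list was 0.33, where all genes had -0.01. Without MSCV line 2 the counts were 10 higher and 1 lower. In SFPQ-ABL1 lines against MSCV 1 gene of the list was lower, Hsd17b10, a subunit of mitochondrial RNase P, at 128 ± 19.8 CPM in SFPQ-ABL1 lines and 186 ± 24.7 CPM in MSCV lines (adjusted p = 0.0445), a call lost without MSCV line 2. In SFPQ-ABL1 lines against BCR-ABL1 1 was higher and 2 were lower.

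Of 20 tested regulators of transcription in both genomes, 4 were higher and 2 lower in BCR-ABL1 lines than in MSCV lines, none passed in SFPQ-ABL1 lines against MSCV, and 4 were lower in SFPQ-ABL1 than in BCR-ABL1 lines. The 6 calls against MSCV are a share near the 32.1% called among all genes. Pprc1, a coactivator of the PGC-1 family, averaged 84.7 ± 5.38 CPM in BCR-ABL1 lines, against 41.2 ± 14.9 CPM in MSCV lines (log2 fold change 1.04, adjusted p = 0.00291). Gabpb1, a subunit of GABP, averaged 59.02 ± 4.89 CPM in BCR-ABL1 lines, against 42.6 ± 2.73 CPM in MSCV lines, and passed (adjusted p = 0.00145). Tfb1m, a mitochondrial rRNA methyltransferase, averaged 13.1 ± 0.96 CPM in BCR-ABL1 lines, against 8.82 ± 0.788 CPM in MSCV lines (adjusted p = 0.00128). Gabpb1 averaged 44.3 ± 3.22 CPM in SFPQ-ABL1 lines and was lower there than in BCR-ABL1 lines (log2 fold change -0.41, adjusted p = 0.00437).

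Of 37 tested assembly factors outside the Nduf names, 7 were higher and 4 lower in BCR-ABL1 lines than in MSCV lines, none passed in SFPQ-ABL1 lines against MSCV, and 2 were higher and 3 lower in SFPQ-ABL1 than in BCR-ABL1 lines. The calls in BCR-ABL1 lines against MSCV are again a share near the 32.1% of all genes. Uqcc3, an assembly factor of complex III, averaged 26.9 ± 1.93 CPM in SFPQ-ABL1, 19.3 ± 1.62 CPM in BCR-ABL1 and 31.9 ± 7.46 CPM in MSCV lines, and Sdhaf4, an assembly factor of complex II, 22.2 ± 1.77, 16.98 ± 1.46 and 24.8 ± 1.91 CPM. Both were lower in BCR-ABL1 than in MSCV lines (adjusted p = 0.00174 and 0.00115) and higher in SFPQ-ABL1 than in BCR-ABL1 lines (adjusted p = 0.0234 and 0.0124). Of 13 genes of coenzyme Q synthesis 4 were higher and 1 lower in BCR-ABL1 lines than in MSCV lines. Coq3, a methyltransferase of the pathway, averaged 3.35 ± 0.727 CPM in SFPQ-ABL1, 7.02 ± 0.63 CPM in BCR-ABL1 and 3.43 ± 0.914 CPM in MSCV lines, and was called in both comparisons with BCR-ABL1 lines (adjusted p = 0.00257 against SFPQ-ABL1 and 0.00212 against MSCV). Of 10 carriers and other entry enzymes 1 was higher and 3 lower in BCR-ABL1 lines than in MSCV lines, among them Ucp2, an inner membrane carrier, at 114 ± 13.01 CPM in BCR-ABL1 lines and 172 ± 11.5 CPM in MSCV lines (adjusted p = 0.00188). Without MSCV line 2 the same comparison gave 9 higher and 3 lower assembly factors, 4 and 1 coenzyme Q genes, 2 and 3 carriers and 4 and 2 regulators. In SFPQ-ABL1 against BCR-ABL1 lines, the coenzyme Q list had 1 higher and 3 lower genes and the carriers 1 higher and none lower. Without MSCV line 2, which left 3 MSCV lines to the shared spread, these became 1 and 3, and 3 and 1, with 3 higher and 5 lower assembly factors and 3 lower regulators.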

How the data were processed

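Libraries were made from total RNA of snap-frozen cell pellets, per the labels' protocols. The authors deposited raw read counts per Ensembl gene and per exon for each of 12 lines. The submitters' processing notes name Subread, featureCounts and mm10. Not given in the sources used here: tool versions, annotation release, strandedness and the handling of multi-mapping reads, which bear on genes with near-identical copies. In edgeR 4.0.16 (R 4.3.3), filterByExpr left 17197 genes, libraries were scaled by TMM, and the quasi-likelihood test was fitted to all 12 lines with group as the only term. Adjusted p-values are Benjamini-Hochberg over all genes tested, two-sided, with calls under 0.05, and ± after a log2 fold change is its SE. CPM are TMM-scaled, and RPKM divide them by the merged exon length of GENCODE M21, which held 55230 identifiers. Windows of 100 bases of each transcript were searched in all other annotated transcripts. Intervals cover counting error only, since counts are PCR reads without molecular identifiers. The 18 replicate pairs had chi-square values of 33.1 to 182 per degree of freedom. The fit was tested on simulated data. DESeq2 1.42.0 and limma 3.58.1 served as alternatives. Named genes were every called gene (or the 15 with the smallest adjusted p), the extremes of each complex, the isoform pairs, the mitochondrial genes, Sdha to Sdhd, Cyc1 and Cycs, and up to 3 called genes of each list. Genes named outside this rule were Ndufb7, as the remaining call, and those called without MSCV line 2, chosen after their values were seen. Members and lists were chosen with earlier results of these data known.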

Additional observations from a re-analysis of the deposited data

Results flagged for a closer look

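Of 144 groups of 4 lines tested for a line far from the others, 12 were flagged (8.33%), where chance flags about 1 in 20. MSCV line 2 was the high line for Ndufb10 (79.8 CPM), Ndufb3 (86.3 CPM), Sdhc (103.5 CPM) and Sdhd (309.7 CPM). BCR-ABL1 line 4 was low for Ndufaf7 (12.5 CPM) and Ndufb3 (49.1 CPM) and high for mt-Nd5 (1543 CPM). SFPQ-ABL1 line 1 was high for Ndufaf4 (45.9 CPM) and Ndufb10 (70.4 CPM), line 2 was low for mt-Cytb (1987 CPM) and Atp5s (10.04 CPM), and line 4 was low for Ndufv2 (96.7 CPM).

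The effects of SFPQ-ABL1 and BCR-ABL1, each against MSCV, differed for 12 genes. Since MSCV drops out of this difference, it is the same edgeR test, with the same values, as that of SFPQ-ABL1 against BCR-ABL1 above, which 26% of all genes passed. SFPQ-ABL1 minus BCR-ABL1, the difference on the log2 scale was -5.59 for Cox6a2, -1.99 for Ndufa4l2 and -1.43 for Cox4i2. It was 0.55 for Ndufb10, 0.52 for Atp5j, 0.48 for mt-Cytb, 0.41 for Uqcrh, 0.40 for Ndufv2, 0.39 for Ndufaf7, 0.33 for Ndufa1, 0.31 for Ndufa8 and 0.22 for Sdha.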

How the results depend on the processing

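Across the alternatives no call on a gene of the naming rule changed its direction, and of the repeats of calls on genes chosen by the naming rule 462 stayed past the threshold and 105 did not. Ndufb7, named outside it, was lost under limma-voom, in the fit of only the 8 libraries compared and in several leave-outs. In brackets after the counts of calls below is the share of all genes called in the same fit. The count for BCR-ABL1 against MSCV was 16 (32.1%) and ran from 9 to 22 when single lines were left out. It was 9 without BCR-ABL1 line 4 (26.2%) or MSCV line 1 (30.1%) and 22 without MSCV line 3 (27.2%). With the replicate number as a block it was 28 (36.7%). For SFPQ-ABL1 against MSCV it was 0 (1.79%) and ran from 0 to 1 with single lines left out. It was 1 without SFPQ-ABL1 line 3 (0.733%), 2 with DESeq2 (6.58%) and 2 with the replicate block (4.22%). For SFPQ-ABL1 against BCR-ABL1 it was 12 (26%) and ran from 6 to 19 with single lines left out. It was 6 without BCR-ABL1 line 4 (20.8%), SFPQ-ABL1 line 1 (21.6%) or SFPQ-ABL1 line 3 (18.1%). It was 19 without MSCV line 2 (28.8%) and 19 with the replicate block (31%). Correlations between lines of the same number in 2 groups ran from -0.00632 to 0.385, with 7 of 12 pairs above 0.1. In 6 of the 12 pairs each line was the best match of the other. The numbers were not taken as pairs, because not every pair was above 0.1 and no label ties the numbers to a shared origin. Neither point shows that lines of the same number were handled apart. Whether they were handled together cannot be told from the labels. Without BCR-ABL1 line 4, SFPQ-ABL1 line 2 and MSCV line 2 together, an alternative chosen after seeing the data, the counts were 17, 0 and 12 in the same order of comparisons, with 7, 0 and 7 of the calls shared. Of all genes, 28.5, 1.91 and 26.6% were called in that fit. The mitochondrial share of counts ran from 1.66 to 1.83% in SFPQ-ABL1 lines, 1.64 to 1.74% in BCR-ABL1 lines and 1.97 to 2.09% in MSCV lines with single lines left out. As a share of protein-coding counts alone it was 1.96% in BCR-ABL1 and 2.31% in MSCV lines, by construction of the smaller denominator. Depth limits the isoforms: at 3 counts, a count of 0 still allows up to 0.0372 CPM in the deepest library and 0.0505 CPM in the shallowest.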
